A study of Homo sapiens with 56 samples.

Results

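Messenger RNA was measured in 3 cutaneous T-cell lymphoma lines of human origin after 4 days of culture with MRG-106. MRG-106, also called cobomarsen, is an oligonucleotide that binds and inhibits miR-155. The quantity described is the mean, with equal weight per line, of the difference between MRG-106 and untreated cells in HuT-102, MJ and MY-LA. It rests on 24 of the 56 arrays of the study, with 4 MRG-106 and 4 untreated arrays in each line, and was tested on 10028 of the 19775 genes of the array. A gene was tested when its mean over the 8 day 4 arrays of a line was at least a signal of 74.0, the median of the table, in each of the 3 lines. Of the others, 1567 reached it in 2 lines, 1550 in 1 line and 6630 in 0 lines. A gene was called in a line when the limma adjusted p was under 0.05, and 574 genes (5.72% of those tested) were called the same way in all 3 lines, 348 of them higher and 226 lower with MRG-106.

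MicroRNAs guide Argonaute proteins to messenger RNAs that pair with a short stretch near the 5′ end of the microRNA, the seed, and the paired messenger RNA is translated less and decays faster. Blocking a microRNA with a complementary oligonucleotide therefore raises its targets in general. miR-155 is made from a long noncoding transcript induced in activated lymphocytes, is overexpressed in several lymphomas, and in T cells is known for its effect on cytokine signalling, on the lipid phosphatase SHIP1 and on other brakes of activation.

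The sequence of the mature microRNA is shown because its seed is the part that pairs with targets, and the strand from the other arm of the hairpin is shown beside it. Bases 2 to 8 are in capitals, read 5′ to 3′, and both sequences are from RefSeq on GRCh38.p14. The 5p strand lies at chr21:25573983-25574006 and the 3p strand at chr21:25574022-25574043, both on the plus strand.
hsa-miR-155-5p: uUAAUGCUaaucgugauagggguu
hsa-miR-155-3p: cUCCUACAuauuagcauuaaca
A messenger RNA that pairs with the 5p seed holds AGCAUUA, its reverse complement. Among the 2545 mature human microRNAs of the same table, 1 has the seed UAAUGCU, which is miR-155-5p itself. Target sites in messenger RNAs were not searched here.

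HuT-102 and MJ are lines that carry the virus HTLV-1, and MY-LA is a line from mycosis fungoides. The cells were grown in wells to which MRG-106 was added, and the 4-day arrays come from MRG-106 and untreated cells of the same line. Before day 8 the wells of all groups were split by 1 dilution factor, set on the untreated cells, and MRG-106 stayed in the medium. The dose is not given in the sources used here. The other arrays used below are those of MRG-106 and untreated cells of the same 3 lines at day 8, 24 in all, and the 8 arrays of HuT-78, a line from Sézary syndrome, at day 8. The labels name no wells with another oligonucleotide, so the effects of inhibiting miR-155 and of adding oligonucleotide as such cannot be told apart. Nothing in them says that each of the 4 arrays of a group had its own culture. The p-values therefore measure only the spread between these arrays, which may be technical. In bulk RNA, fewer cells of a kind and less RNA per cell cannot be told apart.

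The values are the authors' MAS5 signals, a linear intensity that had been scaled to 1 level on every array. They were analysed as log2(signal + 16), so a log2 change of 1 is a doubling for a bright gene and more than a doubling for a dim one. After a signal the ± sign gives the standard deviation (SD, n = 4), and after a log2 change the standard error of the fit. A value given after "changed by" or "rose by", or in parentheses by line, is a log2 change, MRG-106 minus untreated. The 24 day 4 arrays had a median signal of 60.8 to 91.7 and an upper quartile of 397 to 444. The mean of the median signals was 80.9, 84.1 and 72.4 on the MRG-106 arrays of HuT-102, MJ and MY-LA, against 75.5, 78.8 and 66.1 on the untreated arrays. The ratio of the 3′ to the 5′ probe sets for GAPDH, a measure of RNA integrity, averaged 0.904, 0.934 and 0.900 with MRG-106, against 0.933, 0.941 and 0.939 without, in the same order of lines. The ranges of both measures overlapped between the groups in each line. The upper quartile did not overlap in MJ, at 430.4 to 444 with MRG-106 and 399.6 to 430.02 untreated. What part these measures have in the results was not tested.

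T cell identity was checked first with a list of 12 markers of T cells and CTCL, such as CD2, CD3D, CD4 and IL2RA. The list includes CD7 and DPP4, which are often lost in CTCL. In each group of day 4 arrays 9 to 11 of the 12 had a mean signal at or over 74.0. CD7 was under it in every group, CD5 in MY-LA and CD4 in untreated MY-LA cells. The summed signal of the list was 52699 to 56524 with MRG-106 and 45587 to 48734 without in HuT-102, 66457 to 70559 with MRG-106 and 48521 to 54676 without in MJ, and 62107 to 72293 with MRG-106 and 53819 to 60476 without in MY-LA. The groups did not overlap in any line. Of 7 monocyte and macrophage markers 1 was at or over 74.0 in each group, and of 7 B cell markers 3 to 5 were. Of 8 keratinocyte and epithelium markers 1 to 3 were.

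The first question was how large the common early response is. In the mean of the 3 lines 4094 genes (40.8% of those tested) were called, of which 1774 genes were higher (17.7%) and 2320 lower (23.1%), in limma with Benjamini-Hochberg adjustment. Single lines gave 2555 calls in HuT-102 (25.5%), 3013 in MJ (30%) and 2829 in MY-LA (28.2%). The 348 genes called higher in all 3 lines were 3.47% of those tested and the 226 called lower 2.25%. A further 433 genes (4.32%) were called in opposite directions in different lines. The median change over all tested genes was -0.02 in the mean of the lines, so the calls are read against a centre close to 0.

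The shared rises had the larger median size, which was not tested. Among the 348 genes called higher in all 3 lines the median log2 change of the mean was 0.63, and 50 of them at least doubled on average. Among the 226 called lower the median size of the change was 0.38, and 5 at least halved. A change of 1.5-fold or more in each single line was reached by 94 of the genes called higher and 6 of those called lower. The arrays of the groups did not overlap in any of the 3 lines for 505 tested genes (5.04%), 316 of them higher (3.15%) and 189 lower (1.88%). At the edge of the rule stood TRAF4, a TNF receptor adaptor, called lower in all 3 lines (log2 change -0.37, -0.40 and -0.50, largest adjusted p 0.0493), and TMEM39A just outside it (-0.25, -0.27 and -0.60, largest adjusted p 0.0501), both from limma. Across the 10028 genes the day 4 changes of 2 lines correlated at 0.42 for HuT-102 and MJ, 0.38 for MJ and MY-LA, and 0.32 for HuT-102 and MY-LA, as a description over genes that share the same arrays.

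These tests ask whether the change exceeds the spread between arrays of a line. When the 3 lines were taken as the replicates instead, 262 genes were called in the mean, 215 higher and 47 lower in limma, and 1773 had an unadjusted p under 0.05. All 262 were among the genes called with arrays as replicates.

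**Figure D1:**
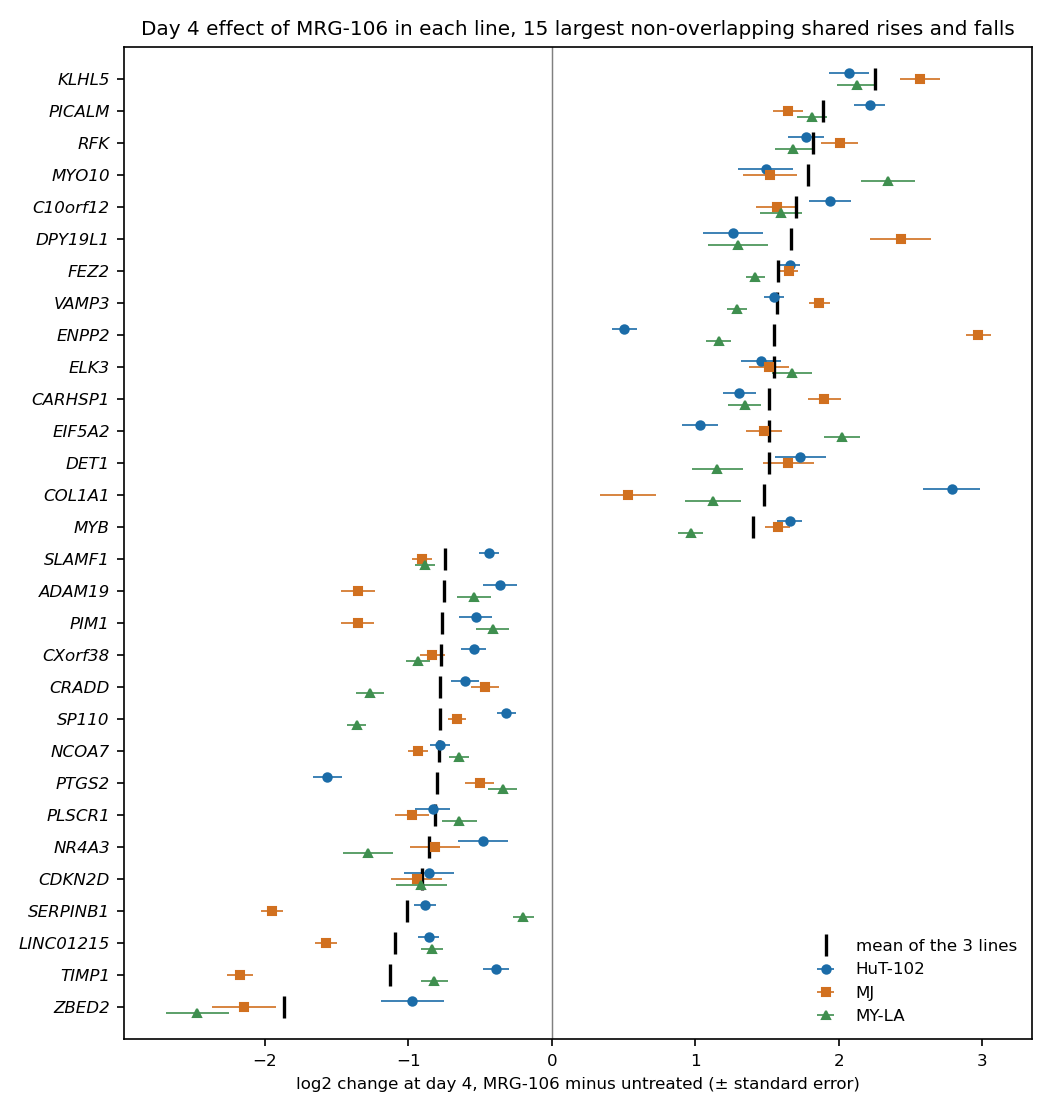
The log2 change at day 4 (x axis, MRG-106 minus untreated, ± standard error) is plotted for the 15 largest rises and 15 largest falls among genes called the same way in all 3 lines whose arrays did not overlap, with 1 symbol per line and a black tick for the mean. KLHL5 leads the rises at 2.25 and ZBED2 the falls at -1.86, and most rises lie closer together over the lines than ENPP2 or COL1A1.

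The 15 largest rises among the 260 genes called higher in all 3 lines whose MRG-106 and untreated arrays did not overlap in any line ran from 1.40 to 2.25 on the log2 scale. KLHL5, a member of the Kelch-like protein family, had the largest. Its signal in HuT-102 was 764, 847, 856 and 1160.5 with MRG-106, against 166, 211, 215 and 217 untreated. In MJ it was 1263, 1421, 1635 and 1671 with MRG-106, against 204, 216, 262 and 276 untreated, and in MY-LA 695, 761, 786 and 873 with MRG-106, against 129, 162, 172 and 207 untreated. Every MRG-106 array lay at over 3 times the highest untreated array of its line, and the mean log2 change was 2.25 ± 0.08 (limma adjusted p 8.43e-30). The change did not pass the test of a difference between lines (limma moderated F-test, adjusted p 0.0768). Of 3 other tested probe sets of KLHL5, 2 were called the same way, and their mean log2 changes ran from 0.13 to 1.79.

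Genes of membrane traffic and the cytoskeleton among the 15 were PICALM, VAMP3, MYO10 and FEZ2. PICALM, which helps assemble clathrin coats, had signals of 5528, 5627, 5681 and 6946 in HuT-102 with MRG-106, against 913, 1307, 1427 and 1489.8 untreated. In MJ the arrays read 5502, 5593, 5682 and 5877 with MRG-106, against 1619.6, 1737, 1866 and 1986 untreated, and in MY-LA 6443, 6465, 6741 and 7404 with MRG-106, against 1679, 1838, 2048 and 2105 untreated. The groups were far apart in every line, and that they did not overlap was a condition for the choice of the 15 genes. VAMP3, a SNARE protein of recycling endosomes, averaged 3927 ± 333 with MRG-106 and 1331 ± 106 untreated in HuT-102, 3865 ± 249.6 with MRG-106 and 1051 ± 92.1 untreated in MJ, and 1365 ± 109.6 with MRG-106 and 547 ± 17.3 untreated in MY-LA. MYO10, the unconventional myosin of filopodia, was at unlike levels in the lines. In MJ it averaged 7852 ± 651 with MRG-106 and 2725 ± 197 untreated, in HuT-102 395 ± 21.1 with MRG-106 and 132 ± 27.6 untreated, and in MY-LA 465 ± 86.3 with MRG-106 and 79.8 ± 24.5 untreated. Its log2 change was 1.49 in HuT-102, 1.52 in MJ and 2.34 in MY-LA. FEZ2, a relative of the kinesin adaptor FEZ1, rose by 1.66 in HuT-102, 1.65 in MJ and 1.42 in MY-LA (mean 1.58 ± 0.04, limma adjusted p 1.54e-36).

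Transcription regulators among the 15 were MYB, ELK3 and C10orf12. MYB, a transcription factor of blood progenitors and immature T cells, had signals of 3358, 3538, 3954 and 4237 with MRG-106 in HuT-102, against 1038, 1139, 1215 and 1351 untreated. In MJ, where it was brightest, the arrays read 19793, 20900.5, 20951 and 21074 with MRG-106, against 6516, 6578, 7309.8 and 7331 untreated, and in MY-LA 11705, 15117, 15280.4 and 17013 with MRG-106, against 7247, 7267, 7557 and 7853 untreated. The choice of the 15 genes required that no array overlap the other group. The log2 change of MYB was smaller in MY-LA (0.97) than in HuT-102 (1.66) or MJ (1.58), a difference between lines that passed the limma F-test (adjusted p 2.05e-05). ELK3, an ETS family factor that represses serum response genes, rose by 1.46 in HuT-102, 1.51 in MJ and 1.67 in MY-LA. C10orf12, a reading frame of the LCOR locus whose product binds Polycomb repressive complex 2, rose by 1.94 in HuT-102, 1.57 in MJ and 1.596 in MY-LA. For ELK3 and C10orf12 a difference between lines was not called (limma F-test, adjusted p 0.662 and 0.275).

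The other large rises were of enzymes, secreted proteins and regulators of RNA and protein. RFK, the kinase that makes flavin mononucleotide from riboflavin, had signals of 1341, 1349.7, 1574 and 1708 with MRG-106 in HuT-102, against 285, 459, 466 and 528 untreated, and rose by 1.77 in HuT-102, 2.01 in MJ and 1.68 in MY-LA. DPY19L1, of the protein C-mannosyltransferase family, averaged 287 ± 37.1 with MRG-106 in MJ and 46.1 ± 31.1 untreated, where the untreated mean lies under 74.0, and rose by 1.26 in HuT-102 and 1.30 in MY-LA. CARHSP1, an RNA-binding protein that stabilizes TNF messenger RNA, rose by 1.31 in HuT-102, 1.90 in MJ and 1.34 in MY-LA. EIF5A2, a paralog of the translation factor eIF5A, rose by 1.03 in HuT-102, 1.48 in MJ and 2.02 in MY-LA. DET1, a subunit of COP1 ubiquitin ligases, rose by 1.73 in HuT-102, 1.65 in MJ and 1.15 in MY-LA. The 1 other tested probe set of DET1 had a mean log2 change of 0.26 and was not called.

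COL1A1 and ENPP2 rose in each line by unlike amounts. COL1A1, a chain of type I collagen, had signals of 949, 1077, 1141 and 1405 with MRG-106 in HuT-102, against 139, 142, 153 and 169 untreated, and its log2 change was 2.79 in HuT-102, 0.53 in MJ and 1.12 in MY-LA. It is also on the list of 9 fibroblast and endothelium markers, of which 3 in HuT-102, 5 in MJ and 4 in MY-LA were at or over 74.0 in both groups. The summed signal of that list was 1380 to 1652 with MRG-106 and 529 to 631 without in HuT-102, 4328 to 4953 with MRG-106 and 3659 to 4385 without in MJ, and 3992 to 5136 with MRG-106 and 6061 to 6494 without in MY-LA, so it did not move 1 way over the lines. Of 2 other tested probe sets of COL1A1, 1 was called the same way, and their mean log2 changes were 0.12 and 0.99. What part other cells have in the COL1A1 rise was not tested. ENPP2, the enzyme autotaxin that makes lysophosphatidic acid, read 2767, 2832, 2874 and 2901 with MRG-106 in MJ, against 328, 339, 351 and 376 untreated, a log2 change of 2.97. The change of ENPP2 was 0.50 in HuT-102 and 1.16 in MY-LA. At day 8 it was called lower in HuT-102 (-0.38, limma adjusted p 0.000225) and higher in MJ (3.81) and MY-LA (0.66).

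**Figure D2:**
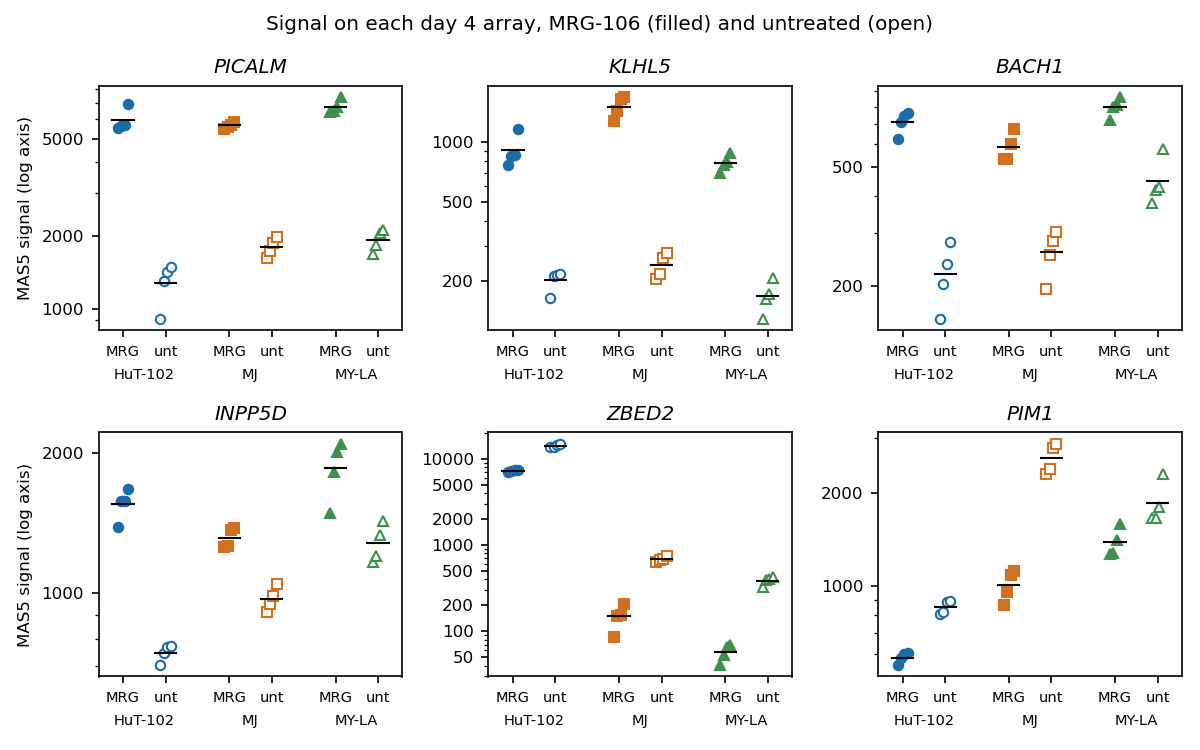
The MAS5 signal (y axis, log scale) of 6 genes is plotted for each of the 24 day 4 arrays, with filled symbols for MRG-106, open symbols for untreated cells and a line at each mean. PICALM, KLHL5, BACH1 and INPP5D were higher and ZBED2 and PIM1 lower on every MRG-106 array of a line than on its untreated arrays. For PICALM, KLHL5, ZBED2 and PIM1 this was a condition for their choice among the largest changes.

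The 15 largest falls among the 142 genes called lower in all 3 lines whose arrays did not overlap in any line ran from -0.74 to -1.86. ZBED2, a BED-type zinc finger protein, had the largest. In HuT-102, where it was brightest, its signals were 7013, 7181, 7389 and 7513 with MRG-106, against 13750.1, 13889, 14521 and 15075 untreated. In MJ they were 85.2, 150.003, 153 and 208 with MRG-106, against 635, 673, 696 and 748 untreated, and in MY-LA 40.2, 53.4, 65.9 and 69.9 with MRG-106, against 329, 389, 403 and 429 untreated. The MRG-106 arrays were lower in every line by wide margins. The MY-LA mean with MRG-106 lies under 74.0, so the mean change of -1.86 depends in part on the value added before the logarithm. The log2 change was -0.97 ± 0.22 in HuT-102 and -2.15 ± 0.22 in MJ.

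PIM1, NR4A3, SLAMF1, CRADD and CDKN2D act in signalling or the cell cycle. PIM1, a serine-threonine kinase induced by STAT proteins, read 864, 956, 1081 and 1115 with MRG-106 in MJ, against 2300.2, 2393, 2783 and 2886 untreated. In HuT-102 it read 551, 580.0, 601 and 603 with MRG-106, against 808, 822, 887 and 888 untreated, and in MY-LA 1268, 1272, 1401 and 1579 with MRG-106, against 1658, 1662, 1793 and 2299 untreated. The groups stood apart in each line and most widely in MJ (log2 change -0.53 in HuT-102, -1.35 in MJ and -0.41 in MY-LA, limma F-test adjusted p 9.13e-06). NR4A3, an orphan nuclear receptor induced by antigen receptor signals, changed by -0.48 in HuT-102, -0.81 in MJ and -1.28 in MY-LA. SLAMF1, the lymphocyte surface receptor CD150, averaged 3580.1 ± 143 with MRG-106 and 4859 ± 216 untreated in HuT-102, 1952 ± 147 with MRG-106 and 3663 ± 178 untreated in MJ, and 1391 ± 178 with MRG-106 and 2565 ± 138 untreated in MY-LA. CRADD, a death domain adaptor of caspase-2, changed by -0.61 in HuT-102, -0.47 in MJ and -1.27 in MY-LA. CDKN2D, an inhibitor of the cyclin D kinases CDK4 and CDK6, changed by -0.86 in HuT-102, -0.94 in MJ and -0.91 in MY-LA, and the limma F-test gave no call of a difference between lines (adjusted p 0.963).

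The other falls were of protease inhibitors, enzymes and genes of other roles. TIMP1, an inhibitor of matrix metalloproteinases, averaged 402 ± 35.9 with MRG-106 and 1887 ± 312 untreated in MJ, 16662 ± 1957 with MRG-106 and 21752 ± 878 untreated in HuT-102, and 724 ± 58.3 with MRG-106 and 1304 ± 222 untreated in MY-LA. SERPINB1, an inhibitor of neutrophil serine proteases, changed by -0.88 in HuT-102, -1.95 in MJ and -0.20 in MY-LA. SP110, a nuclear body protein, changed by -0.32 in HuT-102, -0.66 in MJ and -1.36 in MY-LA, and PLSCR1, a phospholipid scramblase, by -0.83 in HuT-102, -0.98 in MJ and -0.64 in MY-LA. NCOA7, a nuclear receptor coactivator, changed by -0.78 in HuT-102, -0.93 in MJ and -0.65 in MY-LA (mean -0.79 ± 0.04, limma adjusted p 1.14e-22). PTGS2, the cyclooxygenase COX-2, read 276, 296, 314 and 351 with MRG-106 in HuT-102, against 908, 929, 942 and 1002 untreated, and changed by -0.50 in MJ and -0.34 in MY-LA. ADAM19, a membrane metalloprotease, changed by -0.36 in HuT-102, -1.35 in MJ and -0.54 in MY-LA. The long noncoding RNA LINC01215 changed by -0.86 in HuT-102, -1.58 in MJ and -0.84 in MY-LA and the uncharacterized CXorf38 by -0.55 in HuT-102, -0.83 in MJ and -0.93 in MY-LA.

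The question the day 4 arrays were made for is which targets of miR-155 respond. Of a list of 50 published targets, 43 had a usable probe set and 35 were tested in the 3 lines. In the mean 25 of the 35 were called higher, against 17.7% of all tested genes, and 2 lower. Their median log2 change was 0.56, against -0.02 over all tested genes, with 0.61 in HuT-102, 0.62 in MJ and 0.52 in MY-LA. In all 3 lines 18 of the 35 were called higher, against 3.47% of all tested genes. They were PICALM, MYO10, CARHSP1, DET1, SDCBP, BACH1, SMAD5, ZNF652, WEE1, TAB2, JARID2, PELI1, S1PR1, FOXO3, INPP5D, ARID2, RICTOR and TBCA. The list was drawn up with earlier results of these data known, so its count is not independent evidence of its direction.

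Among the signalling regulators of the list, INPP5D, the phosphatase SHIP1 that removes the 5-phosphate of the PI3K product, had signals of 1391, 1576, 1577 and 1675 with MRG-106 in HuT-102, against 702, 744, 767 and 773 untreated. In MJ it read 1259.8, 1262, 1366 and 1378 with MRG-106, against 913, 950.1, 986 and 1048 untreated, and in MY-LA 1488, 1822, 2012 and 2092 with MRG-106, against 1167, 1203, 1335 and 1429.9 untreated. The groups did not overlap, and the change was widest in HuT-102 (1.04 in HuT-102, 0.43 in MJ and 0.52 in MY-LA). TAB2, an adaptor of the kinase TAK1, changed by 1.21 in HuT-102, 0.70 in MJ and 0.61 in MY-LA, and the ubiquitin ligase PELI1 by 0.77 in HuT-102, 1.11 in MJ and 0.55 in MY-LA. RICTOR, a subunit of mTOR complex 2, changed by 0.44 in HuT-102, 0.52 in MJ and 0.50 in MY-LA, and S1PR1, the receptor that lets lymphocytes leave lymph nodes, by 0.80 in HuT-102, 0.71 in MJ and 0.83 in MY-LA. SMAD5, which carries BMP signals, changed by 1.197 in HuT-102, 1.25 in MJ and 0.70 in MY-LA. SDCBP, the scaffold syntenin, changed by 1.55 in HuT-102, 1.49 in MJ and 1.15 in MY-LA, and WEE1, the kinase that holds back entry into mitosis, by 0.35 in HuT-102, 1.08 in MJ and 1.11 in MY-LA.

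Among its transcription and chromatin factors, BACH1, a repressor of heme and antioxidant genes, read 623, 709, 741 and 762 with MRG-106 in HuT-102, against 154.972, 203, 237 and 279.8 untreated. In MJ it read 535, 535, 600.0 and 674 with MRG-106, against 196, 255, 282 and 304 untreated, and in MY-LA 720.3, 798, 807 and 860.4 with MRG-106, against 380.1, 418, 429 and 574 untreated. Each MRG-106 array was above each untreated one of its line. FOXO3, a forkhead factor restrained by AKT, averaged 2422 ± 170.0 with MRG-106 and 1125 ± 105 untreated in HuT-102, 2030.1 ± 137 with MRG-106 and 1297 ± 89.2 untreated in MJ, and 4064 ± 484 with MRG-106 and 2926 ± 237 untreated in MY-LA. JARID2, a cofactor of Polycomb repressive complex 2, averaged 1447 ± 171 with MRG-106 and 865 ± 34.3 untreated in HuT-102, 2768 ± 95.2 with MRG-106 and 1373 ± 262 untreated in MJ, and 4368 ± 281 with MRG-106 and 2589 ± 271 untreated in MY-LA. Of 2 other tested probe sets of JARID2, 1 was called the same way, and their mean log2 changes were 0.02 and 0.89. ARID2, a subunit of a SWI/SNF remodelling complex, changed by 0.66 in HuT-102, 0.66 in MJ and 0.65 in MY-LA, which is nearly 1 value in all lines.

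Not all listed targets moved together. CEBPB, a C/EBP family factor, had log2 differences of 1.13 in HuT-102, 0.14 in MJ and 0.41 in MY-LA, and TP53INP1, a stress protein induced by p53, of 1.12 in HuT-102, 0.71 in MJ and -0.57 in MY-LA, called higher in HuT-102 and MJ and lower in MY-LA. For both, the limma F-test called a difference between lines (adjusted p 8.75e-05 and 4.36e-11). MSH6 was called lower in HuT-102 (-0.38) and higher in MY-LA (0.29), and was not called in the mean. The 1 other tested probe set of MSH6 was called lower in the mean (-0.29). SOCS1, a feedback inhibitor of JAK kinases, had a mean change of 0.13 ± 0.10 and was not called (limma adjusted p 0.3). The phosphatase PTPN2 was at -0.01 ± 0.05 and the GTPase RHOA at -0.04 ± 0.04, both without a call in the mean. The 2 members called lower in the mean were SMAD2, at -0.16 ± 0.04, and the death receptor adaptor FADD, at -0.13 ± 0.05. For SMAD2, 0 of 4 other tested probe sets of the gene were called the same way and 1 was called the opposite way. Their mean log2 changes ran from -0.23 to 0.96, so the small fall of SMAD2 depends on the probe set.

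Further lists of pathway genes were read in the same way, each with the number of members called in the mean of the lines. These counts stand beside the 17.7% of all tested genes called higher and the 23.1% called lower. Of 14 tested enzymes of the PI3K and mTOR pathway 5 were called higher in limma and 0 lower (median 0.13), with 0 lower at an unadjusted p under 0.05 too. The 4 called in all 3 lines were RHEB, the GTPase that activates mTOR complex 1 (mean 0.90 ± 0.06), the lipid phosphatases INPP5D and INPP4A (0.61 ± 0.07), and RICTOR. Of 12 tested FOXO targets and quiescence genes 6 were called higher and 2 lower (median 0.21), but the median was 0.52 in HuT-102, 0.11 in MJ and 0.07 in MY-LA. PIK3IP1, an inhibitor of PI3K, changed by 1.04 in HuT-102, 1.24 in MJ and 0.43 in MY-LA and was called in all 3 lines, as was S1PR1. TXNIP, a thioredoxin inhibitor on the same list, was called higher in HuT-102 and MJ and lower in MY-LA (1.27 in HuT-102, 0.85 in MJ and -0.67 in MY-LA).

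Of 14 tested T cell transcription factors 10 (71.4%) were called higher and 1 (7.14%) lower (median 0.35), against 17.7% and 23.1% of all tested genes. PRDM1, the repressor BLIMP1, averaged 4081 ± 335 with MRG-106 and 3042 ± 179 untreated in HuT-102, 6466 ± 387 with MRG-106 and 3239.5 ± 101.9 untreated in MJ, and 2104 ± 157 with MRG-106 and 1462 ± 81.6 untreated in MY-LA. IKZF1, which encodes Ikaros, changed by 0.27 in HuT-102, 0.69 in MJ and 0.61 in MY-LA, and GATA3, the factor of type 2 helper cells, by 0.67 in HuT-102, 0.46 in MJ and 0.33 in MY-LA. These were the 3 members called in all 3 lines. IKZF4 was the member called lower (-0.50 ± 0.08). The markers of T cells described above were higher in the same samples, with 6 of 9 tested markers called higher in the mean. The 1 called lower was DPP4 (-0.32). What part the markers have in the rise of this list was not tested.

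Of 10 tested heme and redox genes bound by BACH1, BACH1 itself included, 6 (60%) were called higher and 1 (10%) lower (median 0.27). Over all tested genes the shares were 17.7% and 23.1%. TXNRD1, thioredoxin reductase, changed by 0.60 in HuT-102, 1.02 in MJ and 0.63 in MY-LA, and the autophagy receptor SQSTM1 had log2 differences of 0.62 in HuT-102, 0.18 in MJ and 0.90 in MY-LA, called in HuT-102 and MY-LA. GCLM, the regulatory subunit of glutathione synthesis, was the member called lower (-0.25 ± 0.06). Of 15 tested integrins, selectin ligands and related receptors 7 (46.7%) were called higher and 2 (13.3%) lower. SELPLG, the ligand of P-selectin, changed by 0.52 in HuT-102, 0.65 in MJ and 0.28 in MY-LA, and the chemokine receptor CXCR4 by 0.27 in HuT-102, 0.56 in MJ and 0.32 in MY-LA. ITGB7, the integrin chain of gut homing, was called lower in the mean (-0.57 ± 0.08).

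Of 16 tested genes of the clathrin coat and endocytosis, PICALM and HIP1, an adaptor that binds clathrin and actin (0.66 ± 0.10), were the 2 called higher (12.5%). On that list 6 (37.5%) were called lower, against 17.7% higher and 23.1% lower of all tested genes. Of 12 tested subunits and partners of Polycomb repressive complex 2, JARID2 and MTF2 were the 2 called higher (16.7%), and EED and PHF19 the 2 called lower (16.7%). These shares are no larger than those of all tested genes. Of 12 tested genes of microRNA processing and the silencing complex 4 (33.3%) were called higher and 3 (25%) lower, the latter near the share of all genes. TNRC6C, an Argonaute partner, changed by 0.66 in HuT-102, 0.91 in MJ and 1.06 in MY-LA and was called in all 3 lines.

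The tested cytokine genes were mostly lower in the mean. Of 28 listed cytokines and chemokines of T cells 25 had a probe set and 9 were tested. Of these 9, 7 were called lower, against 23.1% of all tested genes, and 0 higher in limma, with 1 higher at an unadjusted p under 0.05 (median -0.40). IL6, which encodes interleukin-6, read 116, 198, 216 and 231 with MRG-106 in HuT-102, against 376, 389.9, 392 and 534 untreated. In MJ it read 141, 154.6, 159 and 176 with MRG-106, against 828, 834, 906 and 1011 untreated, and in MY-LA 300.1, 317, 363 and 409 with MRG-106, against 369, 492, 632 and 657 untreated. The groups stood apart in HuT-102 and MJ and overlapped in MY-LA, and IL6 was the 1 cytokine called lower in all 3 lines (mean -1.36 ± 0.13, limma adjusted p 5.96e-13). TNF had log2 differences of -0.65 in HuT-102, -1.11 in MJ and -0.22 in MY-LA and was called in HuT-102 and MJ. LTB, lymphotoxin beta, had log2 differences of -1.98 in HuT-102, -0.01 in MJ and -0.04 in MY-LA and was called in HuT-102. IL13 was called in MJ alone (-1.24), and TGFB1 in no single line. CCL22, also counted as lower in the mean, was called lower in MJ (-2.12) and higher in HuT-102 (0.74). The median of the list was -0.07 in HuT-102, -0.74 in MJ and -0.27 in MY-LA.

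Receptors and signal carriers of cytokines moved in both directions. Of 17 tested genes of JAK-STAT signalling and its feedback 1 was called higher and 8 lower, 47.1% against 23.1% of all tested genes (median -0.13). That median was -0.17 without MY-LA MRG-106 replicate 1 and -0.067 without MY-LA MRG-106 replicate 4. STAT3 averaged 9069 ± 784 with MRG-106 and 11386 ± 905 untreated in HuT-102, 2965 ± 130.3 with MRG-106 and 5834 ± 337 untreated in MJ, and 5725 ± 914 with MRG-106 and 7840.4 ± 887 untreated in MY-LA. CISH, a feedback inhibitor of STAT5, changed by -0.46 in HuT-102, -0.47 in MJ and -0.46 in MY-LA. With PIM1 these were the 3 members called lower in all 3 lines. TYK2, a JAK kinase, was the member called higher in the mean (0.87 in HuT-102, 0.24 in MJ and 0.05 in MY-LA). Of 14 tested cytokine receptors 4 (28.6%) were called higher and 5 (35.7%) lower, against 17.7% and 23.1% of all tested genes. IL6ST, the signalling chain shared by the interleukin-6 family, changed by 0.44 in HuT-102, 0.83 in MJ and 0.96 in MY-LA, and IL18R1 by -0.75 in HuT-102, -0.59 in MJ and -0.58 in MY-LA. Both were called in all 3 lines.

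Of 18 tested NF-kB subunits, regulators and targets 9 (50%) were called higher and 2 (11.1%) lower, against 17.7% and 23.1% of all tested genes. The median of the list was 0.31 in HuT-102, -0.22 in MJ and 0.11 in MY-LA. TRAF1 was the member called in all 3 lines, with changes of -0.45 in HuT-102, -1.10 in MJ and -0.24 in MY-LA. Of 12 tested members of the BCL2 family and apoptosis genes 4 (33.3%) were called higher and 3 (25%) lower, the latter near the share of all tested genes. BCL2, which prevents release of cytochrome c, averaged 2074 ± 150.4 with MRG-106 and 1094 ± 101 untreated in HuT-102, 2077 ± 98.3 with MRG-106 and 1251 ± 38.6 untreated in MJ, and 257 ± 30.7 with MRG-106 and 200.5 ± 29.2 untreated in MY-LA. BCL2L11, the death promoter BIM, had log2 differences of 0.97 in HuT-102, 0.22 in MJ and 0.23 in MY-LA and was called in HuT-102. BAK1, a pore-forming member, changed by -0.28 in HuT-102, -0.42 in MJ and -0.28 in MY-LA and was called lower in all 3 lines.

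Of 18 tested p53 targets 4 (22.2%) were called higher and 10 (55.6%) lower (median -0.31), against 17.7% and 23.1% of all tested genes. The median of the list was 0.04 in HuT-102, -0.41 in MJ and -0.40 in MY-LA, so the list as a whole was not lower in HuT-102. DDB2, which recognizes ultraviolet damage, changed by -0.42 in HuT-102, -0.42 in MJ and -0.42 in MY-LA, 1 value to 2 decimals. XPC, its partner in nucleotide excision repair, changed by -0.30 in HuT-102, -0.42 in MJ and -0.60 in MY-LA, the exonuclease AEN by -0.34 in HuT-102, -0.47 in MJ and -0.66 in MY-LA, and the fructose bisphosphatase TIGAR by -0.16 in HuT-102, -0.71 in MJ and -0.33 in MY-LA. These 4 were called lower in all 3 lines.

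Lists of growth, biosynthesis and stress genes held more members called lower than higher, as did all tested genes (23.1% lower and 17.7% higher). Of 21 tested genes of mitosis 2 were called higher and 12 (57.1%) lower (median -0.14), with medians of -0.34 in HuT-102, -0.02 in MJ and -0.11 in MY-LA. BUB1B, a spindle checkpoint kinase, was the member called in all 3 lines (-0.53 in HuT-102, -0.25 in MJ and -0.26 in MY-LA). Of 19 tested genes of cholesterol and fatty acid synthesis 2 were called higher and 14 (73.7%) lower (median -0.21), and 0 were called in all 3 lines. The median was -0.37 in HuT-102, -0.01 in MJ and -0.33 in MY-LA. DHCR7, the last enzyme of cholesterol synthesis, had log2 differences of -1.25 in HuT-102, -0.09 in MJ and -0.92 in MY-LA, and HMGCS1, an early enzyme of the pathway, of 0.65 in HuT-102, 0.98 in MJ and 0.13 in MY-LA. Of 17 tested interferon-stimulated genes 2 were called higher and 8 (47.1%) lower. Their median was -0.27 in HuT-102, -0.35 in MJ and 0.10 in MY-LA. ISG20, an exonuclease, and IFI35 were called lower in all 3 lines (-0.56 in HuT-102, -1.24 in MJ and -0.32 in MY-LA for ISG20, -0.41 in HuT-102, -0.53 in MJ and -0.28 in MY-LA for IFI35). Of 20 tested genes of the integrated stress and unfolded protein responses 3 were called higher and 8 (40%) lower. The median of this list was 0.03 in HuT-102, -0.39 in MJ and -0.003 in MY-LA. ASNS, asparagine synthetase, was the 1 called in all 3 lines (-0.44 ± 0.05).

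Other lists gave fewer calls or calls in both directions, and their counts stand beside the 17.7% of all tested genes called higher and 23.1% called lower. Of 21 tested genes of DNA replication 2 were called higher and 5 (23.8%) lower, a share near that of all genes, with medians of -0.31 in HuT-102, -0.01 in MJ and 0.13 in MY-LA. Of 21 tested genes of hypoxia and glycolysis 3 (14.3%) were called each way, and of 10 tested MAPK feedback and immediate early genes 3 each way. Of 12 tested members of the TNF and TNF receptor superfamilies 4 were called higher and 2 lower. Of 11 tested genes of the T cell receptor complex 5 were called higher and 3 lower. Of 26 tested genes of oxidative phosphorylation 5 were called higher and 2 lower, at sizes of 0.24 or less. Of 17 tested cytosolic ribosomal proteins 0 were called in limma and 0 had an unadjusted p under 0.05.

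**Figure D3:**
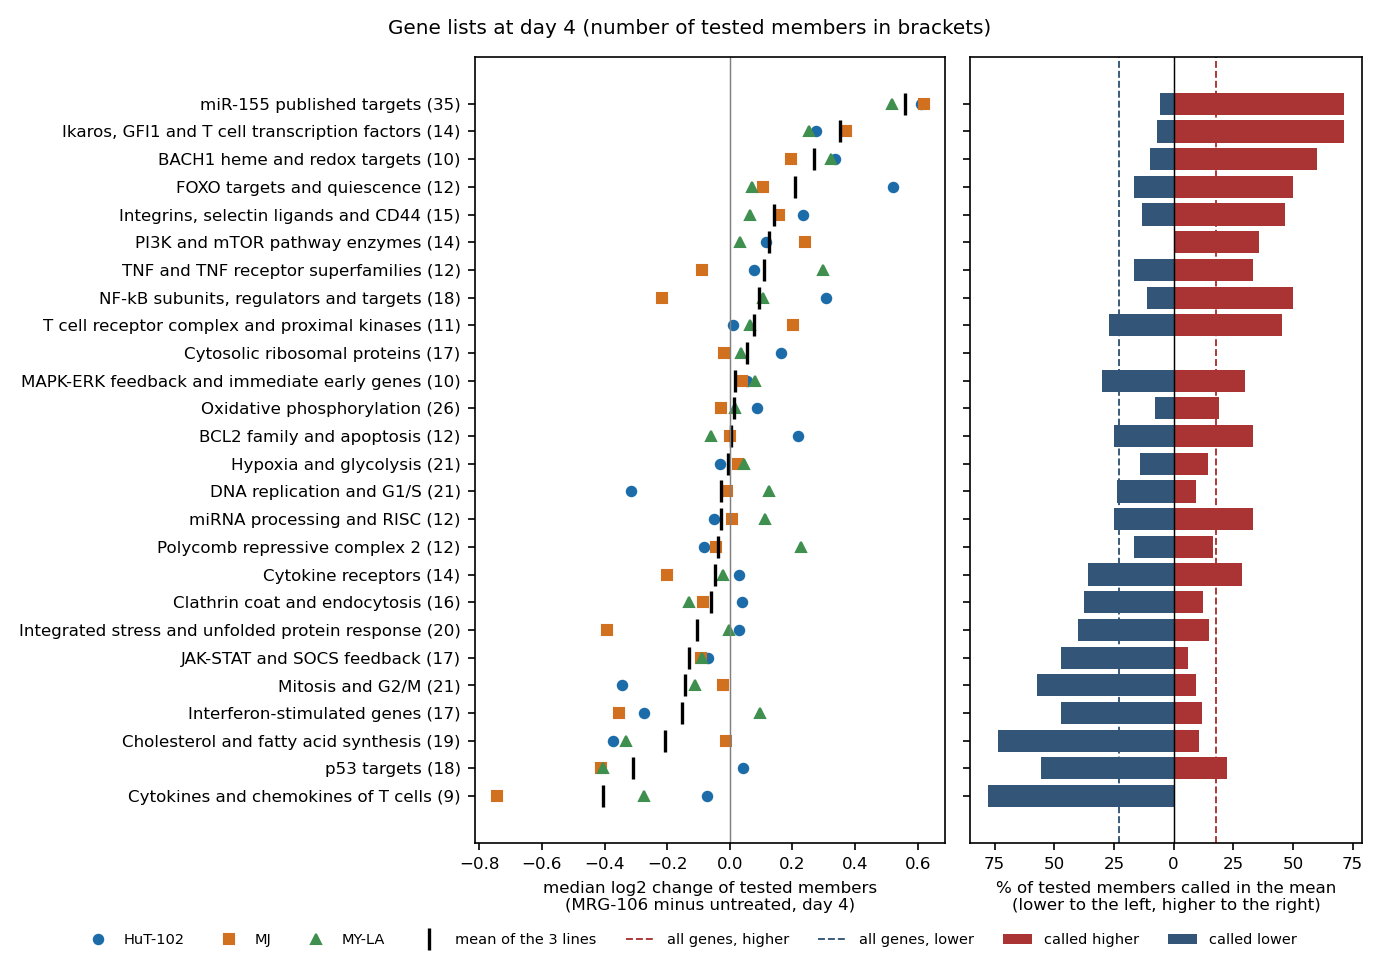
For each gene list the left panel plots the median log2 change at day 4 (MRG-106 minus untreated) in each line and in the mean, and the right panel the percent of tested members called higher or lower in the mean, with dashed lines at the 17.7% and 23.1% of all tested genes. The miR-155 targets have the highest median at 0.56 and the cytokines the lowest at -0.40.

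A mean over lines can hide unequal effects. The limma moderated F-test called 2929 genes (29.2%) whose day 4 effect differed among the 3 lines. Among genes called the same way in all 3 lines it called 136 of the 348 higher and 52 of the 226 lower. ENPP2 had the smallest F-test p among these (adjusted p 5.47e-22), with the changes given above. EEIG2 changed by 2.17 in HuT-102, 1.63 in MJ and 0.26 in MY-LA. In HuT-102 it read 479, 507, 507 and 627 with MRG-106, against 87.9, 108, 112 and 113 untreated, and in MY-LA 1494, 1990.1, 2056 and 2149.9 with MRG-106, against 1516, 1526, 1601 and 1709 untreated, where the groups overlapped. TGFBR3, the TGF-beta co-receptor betaglycan, averaged 726 ± 80.3 with MRG-106 and 1901 ± 20.6 untreated in MY-LA and changed by -0.29 in HuT-102, -0.55 in MJ and -1.38 in MY-LA. TIMP1, SERPINB1 and SP110 completed the 6 with the smallest F-test p, with TIMP1 and SERPINB1 widest in MJ and SP110 widest in MY-LA.

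For genes called in opposite directions the mean describes no line. TNFSF4, the ligand OX40L, averaged 9519.5 ± 530.2 with MRG-106 and 4894 ± 146 untreated in HuT-102. In MJ it averaged 1284 ± 79.8 with MRG-106 and 8442 ± 465 untreated, and in MY-LA 4313 ± 417 with MRG-106 and 5868 ± 346 untreated. It was thus higher with MRG-106 in HuT-102 and lower in MJ and MY-LA, around a mean of -0.73. CCL22, a chemokine that attracts CCR4-bearing T cells, had log2 differences of 0.74 in HuT-102, -2.12 in MJ and -0.01 in MY-LA. NEK6, a mitotic kinase, had log2 differences of 0.79 in HuT-102, -2.15 in MJ and 0.24 in MY-LA. PLAU, the urokinase protease, had log2 differences of 1.88 in HuT-102, -0.70 in MJ and -0.23 in MY-LA, and MYO3B, a class III myosin, of 0.72 in HuT-102, 1.997 in MJ and -0.68 in MY-LA. IFIT3, an interferon-induced protein, had log2 differences of -0.20 in HuT-102, -1.74 in MJ and 0.99 in MY-LA. Without the MJ line the mean change of TNFSF4 was 0.26, of CCL22 0.36, of NEK6 0.52 and of IFIT3 0.40, and without the HuT-102 line that of PLAU was -0.46, each of the sign opposite to the mean of all lines.

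**Figure D4:**
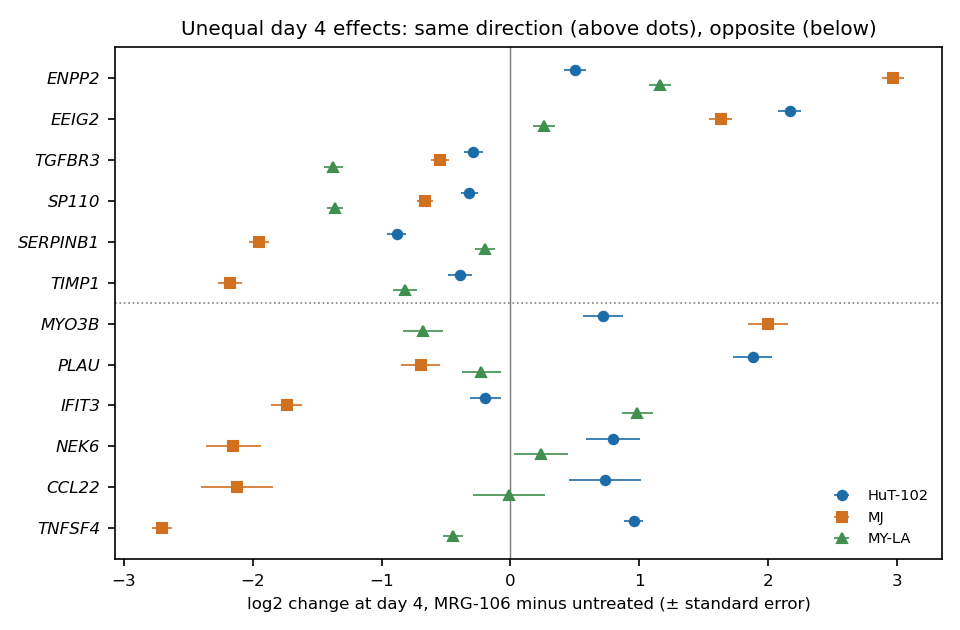
The log2 change at day 4 (x axis, MRG-106 minus untreated, ± standard error) is plotted per line for the 6 genes with the smallest F-test p among those called the same way in all lines, above the dotted line, and for 6 genes called in opposite directions, below it. TNFSF4 runs from 0.96 in HuT-102 to -2.70 in MJ.

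The day 8 values entered none of the day 4 contrasts that chose the 574 genes, but the day 8 arrays shared in the model's variances and in the choice of probe sets. Of the 348 genes called higher at day 4, 344 were called higher in the mean of the 3 lines at day 8, against 22% of all tested genes, and 0 lower in limma, nor at an unadjusted p under 0.05. In all 3 lines at day 8, 235 of them were called higher, against 3.91%. Of the 226 genes called lower at day 4, 215 were called lower in the day 8 mean, against 25% of all tested genes, and 0 higher, nor at an unadjusted p under 0.05, and 94 were called lower in all 3 lines, against 2.87%. Over all tested genes 680 (6.78%) were called the same way in all 3 lines at day 8. The median change of the genes called higher at day 4 was 0.63 at day 4 and 0.63 at day 8, and that of the genes called lower was -0.38 at both days. The cells of day 8 share their line and treatment with those of day 4, but not their arrays. Whether both days came from the same cultures is not given in the labels. When the day 4 arrays alone chose the genes and the day 8 arrays alone tested them, 338 of 343 genes higher at day 4 were called higher in the day 8 mean (23.3% of all tested genes) and 1 lower, and 219 of 232 lower genes were called lower (26.3% of all) and 1 higher. These 2 exceptions were SH3BGRL and TEX261, named after their values were seen.

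Single lines kept the early calls unequally. Of the 348 genes called higher, 298 were called higher in HuT-102 at day 8 (19.4% of all tested genes), 331 in MJ (15.4%) and 279 in MY-LA (24.5%). Of the 226 called lower, 180 were called lower in HuT-102 at day 8 (23.1%), 193 in MJ (20.6%) and 138 in MY-LA (18.4%). Calls in the other direction were 4 and 4 in HuT-102, 0 and 0 in MJ, and 6 and 17 in MY-LA, for the genes higher and lower at day 4. Whether the lines differ in this was not tested. Among the 35 tested miR-155 targets, 28 were called higher and 2 lower in the day 8 mean (median 0.60).

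The size of the mean effect differed between the days for 960 of all tested genes (9.57%), upward in 466 (4.65%) and downward in 494 (4.93%). Among the genes called higher in all 3 lines at day 4 it grew for 25 and shrank for 20, and among those called lower it grew for 32 and shrank for 18. MYB, at 1.40 on day 4, was at 1.82 on day 8, a difference of 0.42 ± 0.07 (limma adjusted p 4.65e-05). In MY-LA at day 8 it read 15167, 15896, 16389 and 16578 with MRG-106, against 4084, 4996, 5370.3 and 6130.1 untreated. Each of these untreated arrays was under every untreated MY-LA array of day 4, while the MRG-106 arrays lay within their day 4 range. KLHL5 (2.25 at day 4, 2.27 at day 8) and PICALM (1.89 and 1.89) did not differ between the days by the test (limma adjusted p 0.965 and 0.993). ZBED2 fell further, to 4984, 5002, 5246 and 5367 with MRG-106 in HuT-102 at day 8, against 14420.0, 14796, 14836 and 15800.0 untreated, and to a mean of 20.3 ± 19.1 in MY-LA, against 396 ± 33.9. The difference between the days passed the test (limma adjusted p 0.000292).

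ISG20 and SP110 were the other falls that deepened most. ISG20 averaged 3803 ± 194 with MRG-106 and 15252 ± 2076 untreated in HuT-102 at day 8, and its mean log2 change was -0.71 at day 4 and -1.52 at day 8. The untreated HuT-102 cells themselves averaged 7444 ± 397 at day 4. SP110 changed by -0.78 at day 4 and -1.43 at day 8. Among the rises, CIITA, the master regulator of MHC class II genes, changed by 0.96 at day 4 and 1.61 at day 8, the Argonaute partner TNRC6C by 0.87 and 1.38, and CYP1B1, a cytochrome P450, by 0.62 and 1.14. All 5 of these differences passed the limma test of the days.

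Few early rises were lost by day 8. GCSAM, a signalling adaptor of germinal centre B cells, read 750.4, 778, 791 and 823 with MRG-106 in HuT-102 at day 4, against 327, 422, 495 and 530.4 untreated, and 438, 489, 513 and 533 at day 8, against 467, 603, 615 and 764. Its groups stood apart at day 4 and overlapped at day 8, and the mean change was 0.58 at day 4 and -0.09 at day 8 (difference -0.67 ± 0.13, limma adjusted p 0.000437). STS, steroid sulfatase, was at 1.22 and 0.71, GLCCI1, a glucocorticoid-induced transcript, at 0.96 and 0.49, ZBTB41 at 0.65 and 0.18, and CEP128, a centriolar protein, at 0.59 and 0.16, with the day 4 value first. IL18R1 was at -0.64 and -0.19, and its difference between the days was not called (limma adjusted p 0.0823).

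Lists of growth and interferon genes had more members called lower at day 8 than at day 4, and over all tested genes 23.1% were called lower at day 4 and 25% at day 8. Of the 21 tested genes of mitosis 12 were called lower at day 4 and 20 at day 8 (median -0.14 and -0.34), and of the 17 tested interferon-stimulated genes 8 and 16 (median -0.15 and -0.51). Of the 21 tested genes of hypoxia and glycolysis 3 were called lower at day 4 and 12 at day 8, and of the 21 of DNA replication 5 and 9. Of the 19 of cholesterol and fatty acid synthesis 14 were called lower at day 4 and 16 at day 8. Of the 9 cytokines 7 were called lower at day 4 and 4 at day 8, where 3 were called higher. The change of these counts between days was not tested.

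HuT-78 offered a set of arrays in which the transcript of miR-155 is near background. The probe set that the array assigns to MIR155 and its host gene averaged 36.2 ± 20.1 with MRG-106 and 29.9 ± 7.72 untreated in HuT-78 at day 8 (SD, n = 4 each). At day 4 it read 24078, 24419, 25961 and 26470 with MRG-106 in HuT-102, against 18207, 19174, 19450 and 21067 untreated. In MJ it averaged 11499 ± 1156 with MRG-106 and 14658 ± 487 untreated, and in MY-LA 22332 ± 567 with MRG-106 and 23909 ± 1570 untreated. The host transcript thus moved up in HuT-102 (log2 change 0.37) and down in MJ (-0.35), each with an exact permutation p of 0.0286, the smallest that 4 against 4 allows (0.0429 adjusted over the 3 lines). In MY-LA its log2 change was -0.10 (exact permutation p = 0.143).

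Of the 348 genes called higher in all 3 lines, 338 were tested in HuT-78, where 36 (10.7%) were called higher and 56 (16.6%) lower, against 13.1% and 13.6% of all 9415 genes tested there (26.7% in either direction). Of the 226 called lower, 224 were tested, and 19 (8.48%) were called lower and 49 (21.9%) higher. The median change in HuT-78 was -0.05 for the genes higher in the other lines and 0.06 for those lower. Across the 9415 genes the change in HuT-78 correlated with the day 4 mean at -0.10, as a description. The HuT-78 calls rest on the spread pooled over all groups, and with its own 8 arrays alone 2 genes were called in limma. Their number also depends on single arrays: it was 2511 with all arrays, 1432 without MRG-106 replicate 4 and 3627 without MRG-106 replicate 1. After quantile normalization it was 1767. The upper quartile of the HuT-78 arrays was 431, 380, 385 and 382 with MRG-106, in the order of the replicates, against 422 to 443 untreated. What part this has in the HuT-78 calls was not tested.

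The largest shared rises were mostly flat in HuT-78. KLHL5 read 1586, 2299, 2359 and 2391 with MRG-106 in HuT-78, against 1961, 2305, 2319 and 2421 untreated, and PICALM 2768, 3512, 3601 and 3622 with MRG-106, against 3413, 3531, 3868 and 3996 untreated. MYB read 10643, 12456, 13136 and 13157 with MRG-106, against 10918, 11179.8, 12052 and 12952 untreated. The groups of all 3 genes overlapped there, and in HuT-78 the untreated signals of KLHL5 were above those of MRG-106 cells in any other line at day 4. Of the 30 genes with the largest shared changes, MYO10 and ZBED2 were not tested in HuT-78. Of the other 28, 8 (28.6%) were called there in limma, near the 26.7% of all genes tested in HuT-78. CARHSP1 was called the same way as in the other lines (0.38 ± 0.12), as were LINC01215 (-0.32 ± 0.08), NR4A3 (-0.62 ± 0.17) and PTGS2 (-0.33 ± 0.10). ELK3 (-0.47 ± 0.14), COL1A1 (-0.81 ± 0.20), CRADD (0.28 ± 0.10) and CXorf38 (0.44 ± 0.09) were called the opposite way. For ELK3 1 MRG-106 array of HuT-78, at 365, lay far under the other 3 at 701, 721 and 787.

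**Figure D5:**
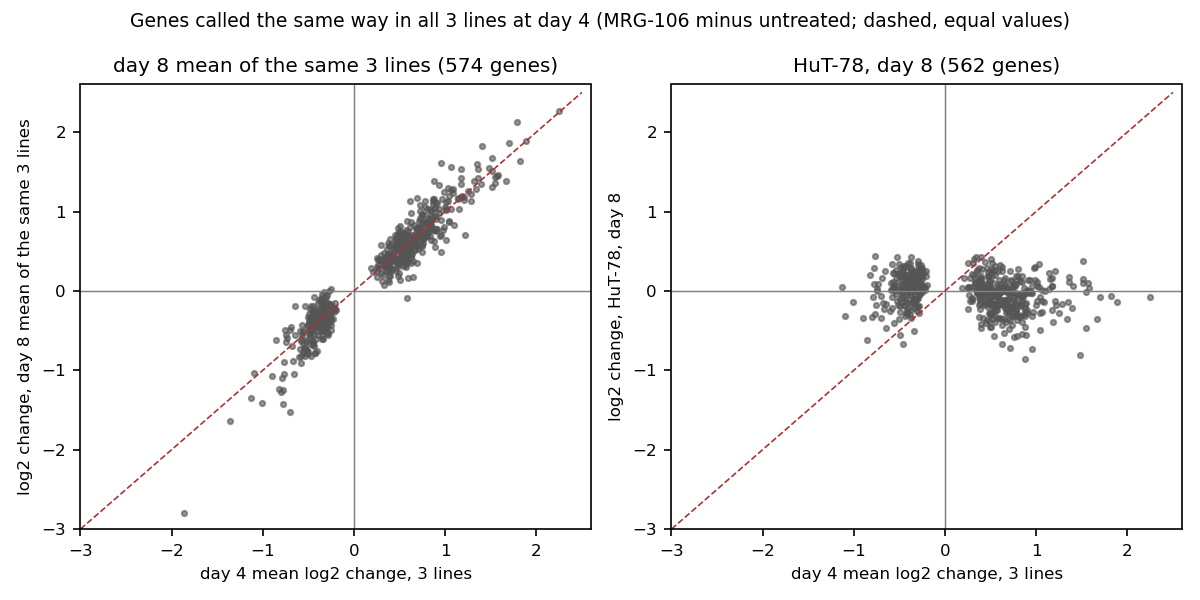
Each point is a gene called the same way in all 3 lines at day 4, with its mean log2 change at day 4 on the x axis (MRG-106 minus untreated) and, on the y axis, its mean change in the same lines at day 8 (left, 574 genes) or its change in HuT-78 at day 8 (right, 562 genes). The points lie along the line of equal values on the left, and on the right around 0, with medians of -0.05 for the genes higher and 0.06 for the genes lower at day 4.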

How the data were processed

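Messenger RNA was measured on 56 Affymetrix arrays of 4 lines. The deposited values are signal intensities on a linear scale, made by the authors with MAS5 and scaled to a common level per array, per the submitters' processing notes and the values. The trimmed mean of every day 4 array was 499.9. Further steps are not given in the sources used here.

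From these values log2(signal + 16) was computed. Of 54675 probe sets, 62 controls, 1801 with several gene symbols and 11721 with none were left out, which left 41091. Of those, 41037 matched the gene table by gene ID and 0 symbols changed. Each of the 19775 genes was represented by its probe set of highest mean over the 56 arrays. One limma model (3.58.1 in R 4.3.3) was fitted over the 14 groups of line, treatment and day, with 42 residual degrees of freedom and a trended prior. For calls, limma p-values were adjusted by Benjamini-Hochberg over all 10028 tested genes (9415 in HuT-78), with a call under 0.05. Differences between lines were tested with the moderated F-test. The host transcript of miR-155 was tested with 2-sided exact permutation tests, adjusted by Benjamini-Hochberg over the 3 lines. The model was tested on simulated data. Tables were made in Python 3.11.15 with pandas 2.3.3, NumPy 2.4.6 and SciPy 1.17.1, and figures with Matplotlib 3.10.9.

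The genes picked for naming were the 15 largest shared rises and falls without overlap of arrays. Added to them were the 4 members of each list with the largest called change, and every listed miR-155 target and cell type marker. Also picked were 6 shared genes with the smallest F-test p and 6 called in opposite directions. The rule further took 6 each whose effect grew or shrank most by day 8. Not all picked genes are described above. Genes outside this rule (GATA3, GCLM, IKZF4, IL13, TGFB1, TIGAR, TYK2 and members of other counts of 5 or fewer) were named after their values were seen. The rule, the lists and the members were chosen with earlier results of these data known.

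The labels carry no shared replicate numbers, so samples were not paired. All arrays passed as separate samples, with 0 pairs of identical columns. The day 4 arrays correlated at 0.957 to 0.975 within groups, and correlations of the other arrays were not computed. The number of arrays limits the precision. Alternatives were other added values, filters, all probe sets without picking 1 per gene, quantile normalization, fits of fewer arrays or without a trend, other averages of the lines, and each array left out.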

Additional observations from a re-analysis of the deposited data

Results flagged for a closer look

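For the 30 genes with the largest shared changes, each of the 180 groups of 4 day 4 arrays was searched for an array apart from the other 3, and 15 had one, where chance gives about 1 in 20 groups. With MRG-106 these were the highest PICALM signal in HuT-102 (6946), the lowest RFK signal in MJ (2941) and the highest in MY-LA (4249.6), the highest EIF5A2 in MJ (564), the highest DET1 in MY-LA (459), the lowest MYB in MJ (19793), the lowest CDKN2D in HuT-102 (118), and the lowest PLSCR1 in MJ (348) and MY-LA (83.0). The highest CRADD signal in MJ (341) and the highest CXorf38 in MY-LA (1187) with MRG-106 also stood apart. In untreated cells they were the lowest KLHL5 signal in HuT-102 (166), the highest FEZ2 in HuT-102 (583), and the lowest DPY19L1 (166) and ELK3 (354) in MY-LA.

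Among the shared genes, the effect at day 4 differed between the lines by the limma F-test for 136 of those higher and 52 of those lower, and the 6 named for it are given here. The adjusted p was 5.47e-22 for ENPP2, 1.65e-15 for TIMP1, 7.65e-18 for SERPINB1, 1.6e-12 for SP110, 5.15e-17 for EEIG2 and 9.6e-12 for TGFBR3. For genes called in opposite directions the limma F-test gave an adjusted p of 1.49e-31 for TNFSF4, 3.32e-07 for CCL22, 5.85e-11 for NEK6, 4.38e-13 for MYO3B, 7.99e-14 for PLAU and 2.63e-17 for IFIT3.

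Many shared genes had a mean effect that differed between day 8 and day 4, and those named for the largest growth or shrinkage are given here. In limma the adjusted p was 0.000292 for ZBED2, 7.86e-13 for SP110, 1.43e-12 for ISG20, 0.0219 for TNRC6C, 0.00166 for CIITA and 0.00216 for CYP1B1, whose effects grew. It was 0.000437 for GCSAM, 0.00142 for STS, 0.000281 for GLCCI1, 0.028 for ZBTB41 and 6.1e-05 for CEP128, whose effects shrank.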

How the results depend on the processing

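For the 158 picked genes called in the mean of the lines, single arrays left out ended 48 of 3792 calls, in 6 genes. Calls of these genes were lost in 3 with log2(signal + 1), 4 without a filter, 3 after quantile normalization, 2 with only the arrays of the contrast, 1 without the trend, 20 without HuT-102, 21 without MJ, 12 without MY-LA and 106 with the lines as replicates. With every probe set on its own the counts were 6953 in the day 4 mean, 939 the same way in all 3 lines, 4540 in the F-test and 8008 in the day 8 mean, from 18617 probe sets instead of 10028 genes. Taking the 3 lines as replicates left 262 calls, a test with fewer samples, and asking for 1.5-fold in each line as well left 100 shared genes. Without MJ the mean turned to 0.36 for CCL22, 0.26 for TNFSF4, 0.52 for NEK6 and 0.40 for IFIT3, and without HuT-102 to 0.027 for TNFRSF8 and -0.46 for PLAU. HuT-78 gave 2 calls from its own arrays and 1432 to 3627 with 1 array left out.

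The median of the miR-155 targets was 0.53 with log2(signal + 64), 0.49 without a filter, 0.50 with a filter at the 75th percentile or on the mean of the 24 arrays, and 0.53 to 0.61 with 1 array left out. The 75th percentile filter gave medians of 0.053 for FOXO targets, 0.43 for T cell transcription factors, 0.035 for the T cell receptor, 0.33 for MAPK feedback, -0.029 for interferon-stimulated genes and -0.073 for the BCL2 family. No filter and the filter on the mean each gave 0.034 for PI3K enzymes, 0.28 for T cell transcription factors and 0.13 for the BCL2 family, and the filter on the mean gave 0.066 for the TNF superfamilies. These filters change which members are tested, and other causes were not tested. The host transcript in MJ ranged over -0.42 to -0.31 with 1 array left out and was no longer called when any 1 untreated array was left out (exact permutation p = 0.0571). The MJ groups did not overlap, with signals of at most 13165.5 with MRG-106 and at least 14187 untreated, so leaving out an array did not make them overlap. In MY-LA it ranged over -0.14 to -0.067, and without untreated replicate 4 it was called (exact permutation p = 0.0286). The cause was not tested. No paired analysis was possible because the labels carry no shared replicate numbers.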
